A study of Drosophila melanogaster with 4 samples.

Results

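The 300 array spots described here were chosen for a bright signal in every sample and a female/male ratio near 1 on both slides, in RNA from whole adult fruit flies. They were taken from 21928 spots with no flag on either slide, out of 22575 spots in all. For each spot the net signal is the mean pixel intensity minus the mean local background, and the scaled net is this value divided by the median net of the unflagged spots in the same sample. A scaled net of 1 is therefore the level of the median spot. A spot entered when the female/male ratio of scaled net lay between 0.8 and 1.25 on each slide, which 2178 spots met, and the 300 of these with the highest minimum over the 4 samples are the members. The levels and the female/male ratios chose the members, so these values are given as a description with no test.

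RNA was measured in 4 samples of Drosophila melanogaster, each a pool of intact adult animals, with 2 female and 2 male pools that share a single genotype. One slide carried the female pool in Cy5 against the male pool in Cy3, both handled without a wash. The other slide carried the female pool in Cy3 against the male pool in Cy5, both handled with a wash. The labels name neither the genotype nor the wash, give no age beyond adult and no number of flies per pool, and list no treatment other than the wash. Because a wash state and its slide coincide, the effects of wash and of slide cannot be told apart, nor can a difference in female/male ratio between the slides be separated from a dye difference. In whole flies, fewer cells of a type and less RNA per cell cannot be told apart either.

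Many of the transcripts that adult flies of both sexes hold in large amounts come from genes that nearly every cell uses. Ribosomal proteins, translation elongation factors, actins and tubulins, glycolytic enzymes and subunits of the respiratory chain are the textbook examples, and such genes often serve as references when other transcripts are compared. The gonads set the sexes apart, since the ovary fills eggs with maternal RNA and the testis transcribes many genes used nowhere else. Total RNA in which the ovary or the testis takes a large part can therefore shift the apparent level of a common transcript. No gene is named at any spot in the files used here, so none of the 300 members can be assigned to these classes, no probe sequence can be shown, and the labelled sex could not be checked against its marker genes. Each spot is called by its running number on the array, followed by its position.

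The brightest member was spot 37 (row 1, column 37). Without wash its scaled net was 93.2 (female) and 83.4 (male), and with wash it was 56.9 (female) and 66.0 (male). Both samples without wash were above both samples with wash, and the female sample was the higher on the first slide and the lower on the second. Spot 3031 (row 15, column 21) came next, with 73.7 and 63.1 in the female and male samples without wash and 40.9 and 45.3 with wash. Spot 11135 (row 52, column 170) had 37.2 and 30.8 without wash and 22.2 and 24.1 with wash. The same order of samples, female without wash highest and female with wash lowest, was seen at all 3 spots. The level of a spot depends on its probe as well as on its transcript, so the order of spots is an order of brightness and not of transcript number.

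The other 7 of the 10 brightest members had a minimum scaled net between 13.6 and 18.5. They were spots 19294 (row 90, column 159), 4758 (row 23, column 28), 5309 (row 25, column 149), 1224 (row 6, column 149), 17851 (row 84, column 6), 14332 (row 67, column 142) and 6308 (row 30, column 73). In all 7 the lowest value was that of the female sample with wash and the highest that of the female sample without wash. Spot 1224 varied most among them, from 17.7 to 32.9, and spot 19294 least, from 18.5 to 24.7. These 10 spots held 21.4% to 23.0% of the summed net signal of all members, and the first 100 members held 65.3% to 67.4%, so the signal of the set is concentrated in few spots.

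**Figure D1:**
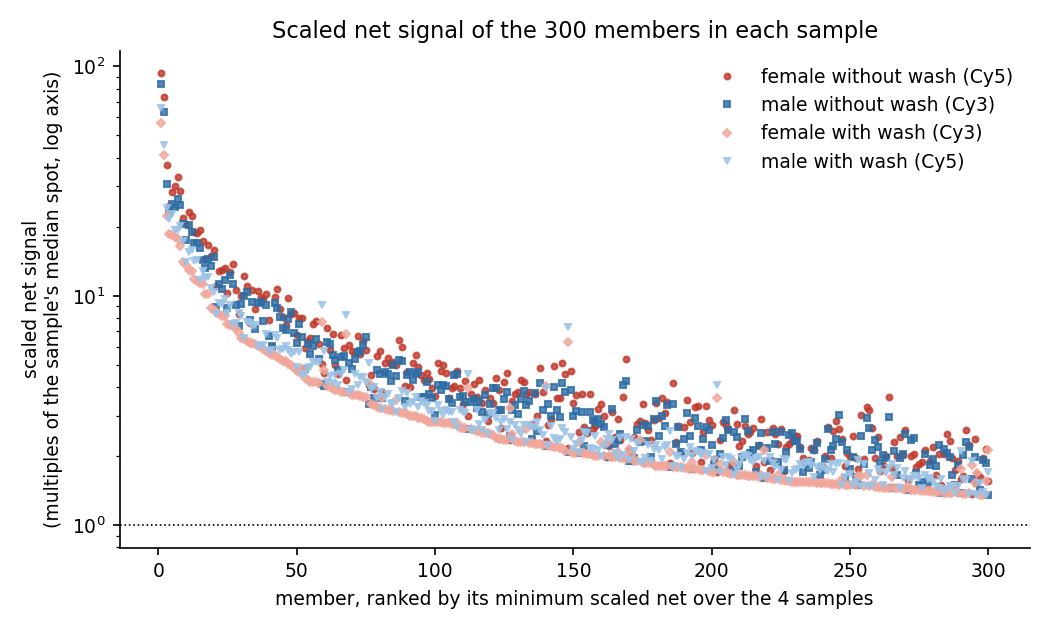
Scaled net signal (log axis, multiples of the sample's median spot) of each of the 300 members in the 4 samples, against rank by minimum scaled net. The dotted line marks the median spot, and the values fall from 56.9 to 93.2 at the first member to 1.35 to 2.13 at the last.

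Most members were only moderately bright. Over the members the median scaled net of the females was 3.39 without and 2.18 with wash, and that of the males 3.03 without and 2.41 with wash. The minimum over the samples had a median of 2.07 across the members, against 0.617 across all unflagged spots. It was 10 or more at 18 members, 5 or more at 47, 2 or more at 160 and under 1.5 at 54. In intensity units the median net signal of the members was 171 and 150 in the female and male samples without wash, and 131 and 214 with wash. All 300 were at least 2 times their local background in all 4 samples, with the lowest value at 2.62 times, and none had a median pixel of 65000 or more.

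The description of these spots as the most abundant transcripts holds only within the ratio limits. On the array as a whole, 5842 unflagged spots had a minimum scaled net as high as the last member, and the members were 5.14% of these. There were 103 spots brighter than the brightest member, and all of them lay outside the limits on at least 1 slide. The members were 1.37% of the unflagged spots and carried 1.24% to 1.31% of the summed net signal in the 4 samples, a share close to that of as many average spots. The 5542 spots that were as bright but outside the limits carried 69.8% to 81.9%.

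At the end of the list, spot 6991 (row 33, column 111) had scaled nets of 2.15 and 1.87 in the female and male samples without wash and 1.56 and 1.35 with wash. The last member, spot 17674 (row 83, column 44), had 1.56 and 1.35 without wash and 2.13 and 1.70 with wash. The first spots left out, 8941 (row 42, column 126) and 19129 (row 89, column 209), had minima of 1.345 and 1.343, against 1.351 and 1.348 for the last members. No step in level separates the members from the spots that follow them.

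Between samples the members varied moderately. The SD of log2 scaled net over the 4 samples had a median of 0.30 across members, and the highest sample exceeded the lowest by a median of 1.58-fold, with 18 members over 2-fold. In scaled net, spot 3277 (row 16, column 52) was the steadiest. It was at 5.97 and 6.05 in the female and male samples without wash and 5.52 and 5.79 with wash, a spread of 1.10-fold. Spot 12252 (row 57, column 212) followed at 1.57, 1.43, 1.48 and 1.60 in the same order of samples. On the loess values described below, spot 3277 had a female/male ratio of 1.48 with wash, above the limits. Its slide difference there was 0.47 in females and 0.017 in males (log2). Spot 12252 stayed within the limits on both slides. With wash the median pixel was 0.71 and 0.93 of the mean at spot 3277 in the female and male samples. At spot 12252 it was 0.81 and 0.62. The order of the members on the 2 slides is given as a description, since the rule used these levels. Across the 300 members, which share slides and scaling and were chosen for similar ratios, log2 scaled net correlated between the female samples with r = 0.94 (Spearman's rho = 0.88) and between the male samples with r = 0.94 (rho = 0.88). Between samples of opposite sex on different slides r was 0.94 in both pairings (rho = 0.87 and 0.88).

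Inside the limits the members were not spread evenly around a ratio of 1. Without wash the female/male ratio had a median of 1.12 and lay above 1 at 246 members. With wash it had a median of 0.879 and lay above 1 at 37 members. The ratio exceeded 1.2 at 72 members without wash and fell under 0.85 at 98 with wash, so many members sit against the upper limit on the first slide or the lower limit on the second. At 212 members the female sample was higher without wash and the male sample higher with wash, which is a higher Cy5 signal on both slides, while 3 members had the higher Cy3 signal on both. The female sample was higher on both slides at 34 members and the male sample at 51. Among the next 300 spots within the limits, whose minimum scaled net was 0.945 to 1.345, the Cy5 signal was higher on both slides at 148. These counts were not made over all unflagged spots, so they are not read as particular to the members.

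**Figure D2:**
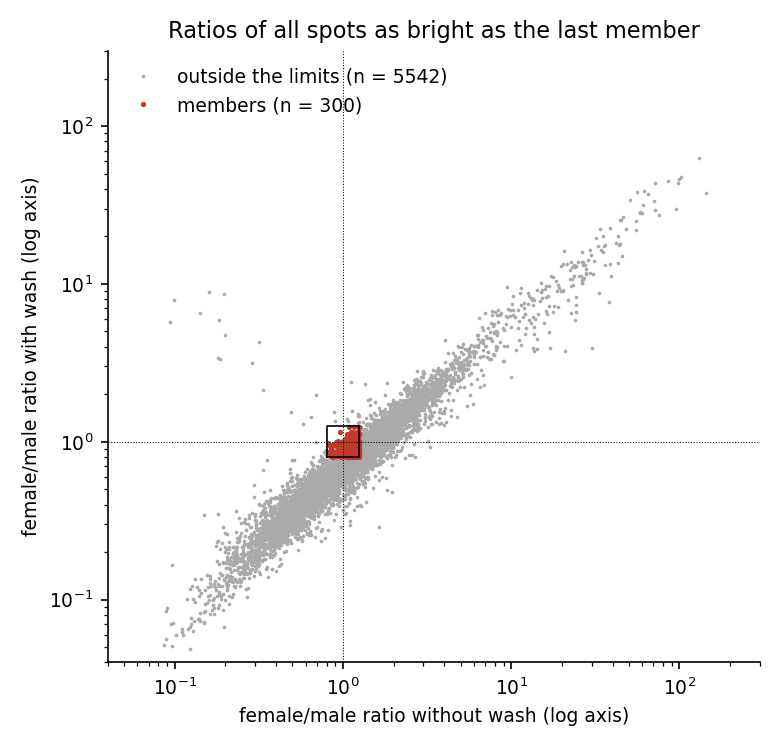
Female/male ratio of scaled net without wash (horizontal, log axis) and with wash (vertical, log axis) for the 5842 unflagged spots at least as bright as the last member. The box marks the limits of 0.8 and 1.25, and the 300 members (red) fill mainly its lower right part, since the band of bright spots passes below the point where both ratios are 1.

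The bright spots as a whole lay differently. Over the 5842 spots as bright as the last member the median ratio was 0.984 without wash and 0.672 with wash. Of these, 1173 were over 1.25 on both slides and 2289 were under 0.8 on both. Another 1093 lay within the limits without wash and under 0.8 with wash, and 796 lay over 1.25 without wash and within the limits with wash. The 300 members are all of the spots of this brightness that were within the limits on both slides.

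The median female/male ratio of scaled net changed with brightness, and differently on the 2 slides. When the unflagged spots with a positive net signal in every sample were divided into 5 sets of 4385 by mean log2 scaled net, the median ratio with wash was 0.631 in the brightest set, 0.782 in the second, 0.914 in the third, 1.09 in the fourth and 1.63 in the dimmest. Without wash it was 0.958, 0.954, 0.963, 0.818 and 0.637 in the same order. Both slides thus had medians near 1 only among spots of middle brightness. Spots within the limits on both slides made up 2.30% of the brightest set, 6.32% of the second, 20.3% of the third, 20.0% of the fourth and 0.821% of the dimmest. The brightest set held 101 members, the second 198 and the third 1.

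**Figure D3:**
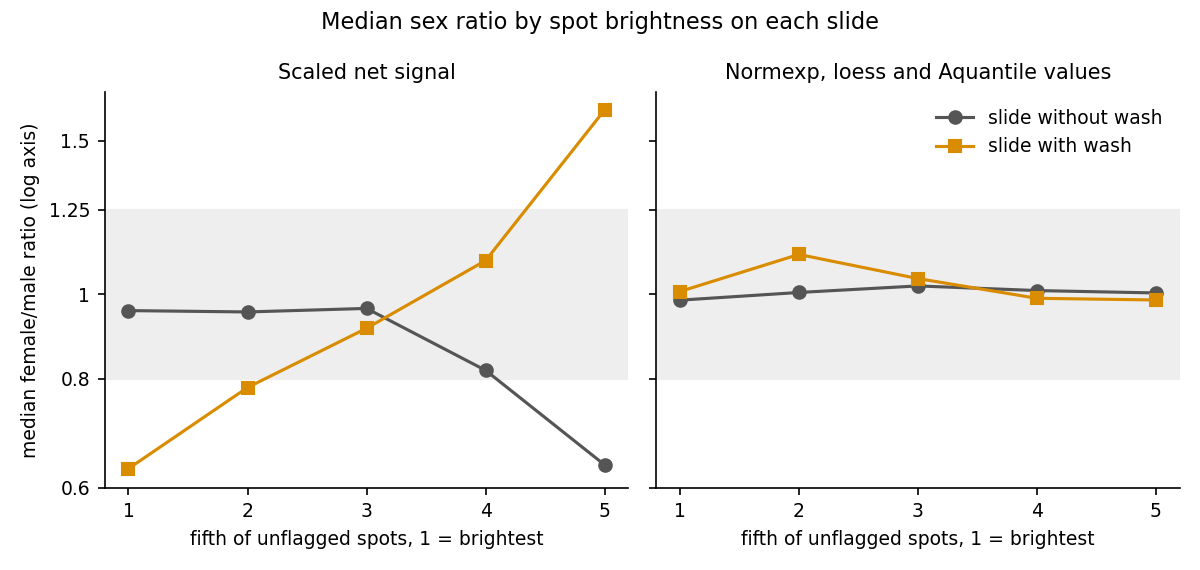
Median female/male ratio (log axis) in 5 sets of unflagged spots ordered from the brightest (1) to the dimmest (5), for scaled net signal (left) and for normexp, loess and Aquantile values (right). The grey band marks the limits of 0.8 to 1.25; with scaled net the slide with wash runs from 0.631 to 1.63, and with loess values the medians of both slides stay between 0.985 and 1.11.

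The members were next read on values whose ratio was normalized along brightness. Mean intensities were corrected by normexp with an offset of 50, the Cy5/Cy3 ratio was normalized by loess within each slide, and mean intensities were matched between slides. On these values the members had median female/male ratios of 1.14 without wash and 1.28 with wash, and 267 of 300 were higher in the female sample on both slides, against 40.1% of all unflagged spots. The ratio lay within 0.8 to 1.25 on both slides at 121 members, against 48.6% of all unflagged spots. Without wash 255 members were within the limits, against 55.4% of all unflagged spots, and 45 above them, against 21.9%. With wash 127 were within, against 54.7%, and 173 above, against 25.4%. No member was below the limits on either slide, against 22.7% of all unflagged spots without wash and 19.9% with wash. This contrast is the one the rule used, and the counts describe how the choice looks on another scale.

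With wash the ratio after loess was higher at the brighter members, while without wash it did not follow brightness throughout. The 10 brightest had a median loess ratio of 1.02 without wash, where 4 of them were below 1, and of 1.41 with wash. The first 100 members had a median loess ratio of 1.17 without wash and 1.34 with wash, and 5 of them were within the limits on both slides. The last 100 had medians of 1.07 and 1.17, and 78 of them were within the limits. With plain background subtraction and no offset before the loess step, which was added after seeing the data, the members' medians were 1.23 and 1.38. On that scale 278 members were higher in the female sample on both slides, against 41.4% of all unflagged spots, and 51 were within the limits on both, against 33.3%. In the fit described with the slide difference, 1 of the 300 members passed the threshold for female minus male (limma, Benjamini-Hochberg adjusted p under 0.05), against 33.4% of all tested spots. With only spots at least 2 times background tested the count was 112, against 68.3%. With median pixels it was 44, against 46.5%, and with no intensity trend 43, against 33.6%. In the remaining alternatives it was 0 to 4, where 50 to 8791 of all tested spots passed. The rule used that contrast, so these counts are no test of the members, and nothing is read from them.

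Applying the same rule to the loess values gave a different set of spots. Within the limits on both slides were 10661 spots, and the 300 brightest of these had a minimum scaled net between 4.82 and 125, with a median of 9.15, against 2.07 for the members. Only 4 spots were members under both scalings, 1.33% of each list. They were spots 4758 (row 23, column 28), 14332 (row 67, column 142), 21756 (row 102, column 41) and 9574 (row 45, column 114), the last 2 named after their values were seen. Spot 4758 had scaled nets of 28.4 and 25.2 in the female and male samples without wash and 18.4 and 22.6 with wash. Its ratios were 1.13 and 0.812 in scaled net and 1.01 and 1.25 after loess, on the slides without and with wash. All 4 lay close to the lower limit with wash in scaled net and close to the upper limit after loess. The other 296 spots of the loess list all had a scaled net ratio under 0.8 with wash.

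The same measure in samples that did not choose the spots was examined by applying the rule on 1 slide and reading the other. Of 300 spots chosen on the slide without wash alone, 24 had a ratio within the limits with wash (8%, 95% exact binomial interval 5.19 to 11.7), against 24.9% of all spots with a positive net signal in every sample. The other 276 were all under 0.8, with a median ratio of 0.606 over the 300. Of 300 spots chosen on the slide with wash alone, 34 were within the limits without wash (11.3%, 7.98 to 15.5), against 24.8% of all spots, and 265 were over 1.25, with a median ratio of 1.60. Brightness carried over, since 100% of the first list and 99.3% of the second were above the median spot in both samples of the slide not used. In scaled net, a ratio near 1 at a bright spot of 1 slide was therefore mostly not found on the other. The shares over all spots, here and with loess values below, include dim spots and are not matched in brightness to the spots chosen. The intervals cover counting error only, since spots of a slide are not independent.

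With loess values the outcome differed. Of the 300 spots chosen on the slide without wash, 222 were within the limits with wash (74%, 68.6 to 78.9), against 54.7% of all unflagged spots, and of those chosen with wash 225 were within the limits without wash (75%, 69.7 to 79.8), against 55.4%. The median ratio on the slide not used was 1.05 in the first case and 0.966 in the second. Whether the steep change of ratio with brightness in scaled net comes from dye, wash or slide cannot be told apart here, because the 3 change together between the slides.

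A shift between slides common to females and males is a contrast the rule did not select on directly. In scaled net, 252 members were lower with wash in both sexes, against 47.6% of all spots, and 16 were higher in both, against 17.2%. Among the next 300 spots within the limits, 223 were lower in both sexes and 37 higher, so most of this shift is not particular to the members. The members' counts depended on the scale. With normalized median pixels 107 were lower, against 35.3%, and 96 higher, against 34.2%. With no normalization 2 were lower, against 7.46%, and 20 higher, against 22.8%, and in the authors' deposited value table, which is not scaled between channels, 3 were lower, against 5%, and 42 higher, against 38.7%. The median log2 difference, with minus without wash, was -0.62 in females and -0.30 in males, and over all spots it was -0.20 and -0.30. Since each sample was divided by its own median, these differences are relative to the median spot. Over 2-fold in both sexes, 2 members were higher with wash, against 4.21% of all spots, and 0 were lower, against 1%. Among the next 300 the counts were also 2 and 0. The rule limits such differences in part, because a spot that is low on either slide loses rank.

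After loess and Aquantile normalization, the members' median slide difference was -0.14 (log2), at -0.036 in females and -0.22 in males, against -0.07 over all tested spots. On this scale 170 members were lower with wash in both sexes, against 50.6% of all spots, and 46 were higher, against 27.9%. In the limma fit with sex and slide as terms, 0 of 300 members passed an adjusted p under 0.05 for the slide term, against 0% of all 21928 tested spots, and 53 members, 42 of them lower with wash, had an unadjusted p under 0.05, against 35.9%. The count of 0 rose to 5 with median scaling only, against 12.3% of all spots. In that setting the degrees of freedom with the prior were 21928, so its p-values rest on a spread pooled over all spots. The count was 21 with only spots at least 2 times background tested, against 16%. It was 18 with spots at least 8-fold brighter in Cy3 than in Cy5 left out, against 21%. In the authors' deposited value table it was 0, against 12.5%. The residual of this fit is the disagreement of the ratios of the 2 slides, which the rule keeps small at the members, so these counts are not independent of the choice. An exact permutation test with 2 samples on each side has a smallest possible p of 0.333, so the limma p-values draw on the spread of all spots. Both that test and the fit treat the channels of a slide as separate samples. No wash state was repeated on another slide. The SE and p-values of the slide term therefore hold no spread between slides of the same wash state, and cannot decide whether a difference would recur.

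The spots named next were picked for the largest slide differences among members that moved the same way in both sexes, so that agreement is not a finding. Spot 15507 (row 73, column 27) had scaled nets of 2.17 and 2.08 in the female and male samples without wash and 6.31 and 7.31 with wash. Both samples with wash were far above both without. After loess its difference was 1.67 (SE 0.13, limma adjusted p = 0.0758), at 1.85 in females and 1.49 in males. This SE and p, like those of the spots below, hold no spread between slides of the same wash state. Spot 5696 (row 27, column 106) had 5.02 and 4.11 without wash and 7.70 and 9.16 with wash, a difference of 1.15 (SE 0.083, limma adjusted p = 0.0758).

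In the other direction the differences were smaller. Spot 17815 (row 83, column 185) had 5.32 and 4.26 in the female and male samples without wash and 1.94 and 2.42 with wash, a difference of -0.71 (SE 0.10, limma adjusted p = 0.0805). Spot 20395 (row 95, column 185) had 4.17 and 3.37 without wash and 1.80 and 1.81 with wash, a difference of -0.65 (SE 0.084, limma adjusted p = 0.0800). At both spots the samples with wash lay below the samples without wash. Both stand in the corner of the last 26 rows and 61 columns, which held most of the spots with raised local background without wash. At spot 17815 the background was 68.5 and 43.5 intensity units in the female and male samples without wash and 23.5 and 37.6 with wash. At spot 20395 it was 60.3 and 36.7 without wash and 23.8 and 37.4 with wash. Its part in the lower values with wash was not tested. All 4 differences missed the adjusted threshold here, and the settings under which they passed it are given with the processing.

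The shape of the spots differed between the slides, at the members and over the array. A median pixel above the mean pixel was found at 283 and 292 members in the female and male samples without wash, and at 211 and 183 with wash. Over all unflagged spots the shares were 61% and 88.4% without wash and 46.5% and 28.9% with wash, so the lower shares with wash were those of the array as a whole. A median pixel under 0.8 of the mean, which means that a few bright pixels raise the mean, was found in both samples with wash at 18 members, against 9.95% of all unflagged spots. Without wash it was found in both samples at 0 members, against 0.00456% of all unflagged spots. Of the 16 members higher with wash in both sexes, 11 were among these 18. The same share was not counted over all spots, so it is not read as particular to the members. Spot 15507 had a median pixel of only 0.29 of the mean in both samples with wash, and spot 5696 of 0.53 and 0.50. The median slide difference in log2 scaled net was 0.33 for the 18, with a range from -0.95 to 1.68, and -0.49 for the other 282, with a range from -1.14 to 0.38.

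**Figure D4:**
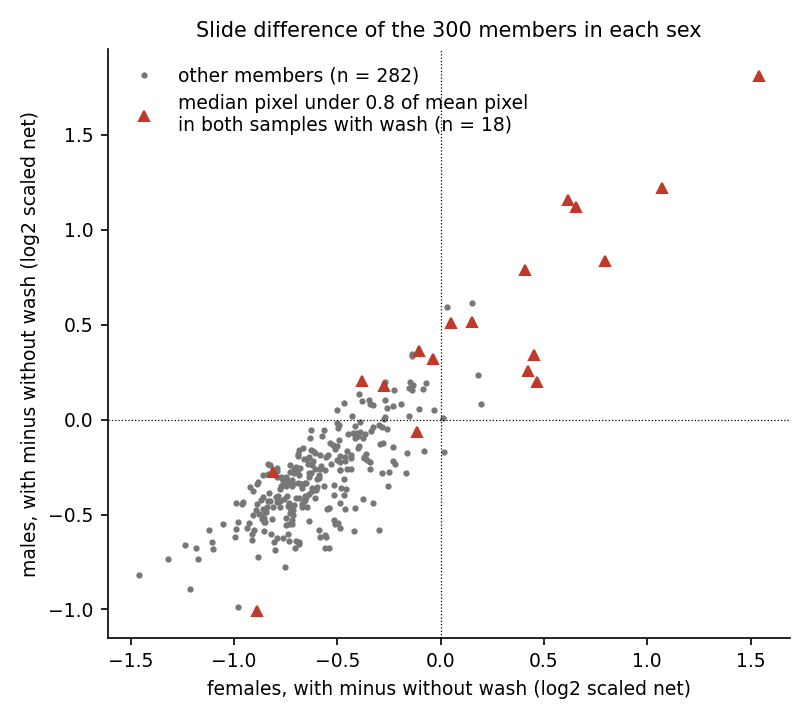
Difference in log2 scaled net, with minus without wash, of each of the 300 members in females (horizontal) and males (vertical). The 18 members whose median pixel was under 0.8 of the mean pixel in both samples with wash (red triangles) include 11 of the 16 members that were higher with wash in both sexes. The same share over all spots was not counted.

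Read on median pixels, the differences between the slides were smaller. With the median pixel minus the median background, scaled to the median spot in log2, the slide difference had a median of -0.01 for the 18 members, -0.03 for the other 282 and 0.02 over all unflagged spots. In the limma fit on normalized median pixels the difference of spot 15507 was 0.15 in place of 1.67, that of spot 5696 was 0.10 in place of 1.15, that of spot 17815 was -0.43 in place of -0.71 and that of spot 20395 was -0.37 in place of -0.65. The 18 members, spots 15507 and 5696 among them, were picked for a low median pixel with wash. At these a lower difference on median pixels follows from the choice. The part of spot shape in the differences was not tested. Median pixels also changed the membership: the rule applied to them kept 35 of the 300.

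The members were spread over the array, which had 105 rows and 215 columns. They lay in 98 rows and 150 columns, with at most 8 in a row (row 77) and 10 in a column (column 167). That column also held 49 of the spots as bright as the last member, against a median of 26 per column. A member directly above, below or beside another was found for 14 of the 300 (4.67%). The first, middle and last of 3 equal blocks of columns held 22.7%, 35.7% and 41.7% of the members, against 33.2%, 34.1% and 32.7% of the unflagged spots. The blocks of rows held 38%, 28.3% and 33.7%, against 33.9%, 34.0% and 32.1%.

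**Figure D5:**
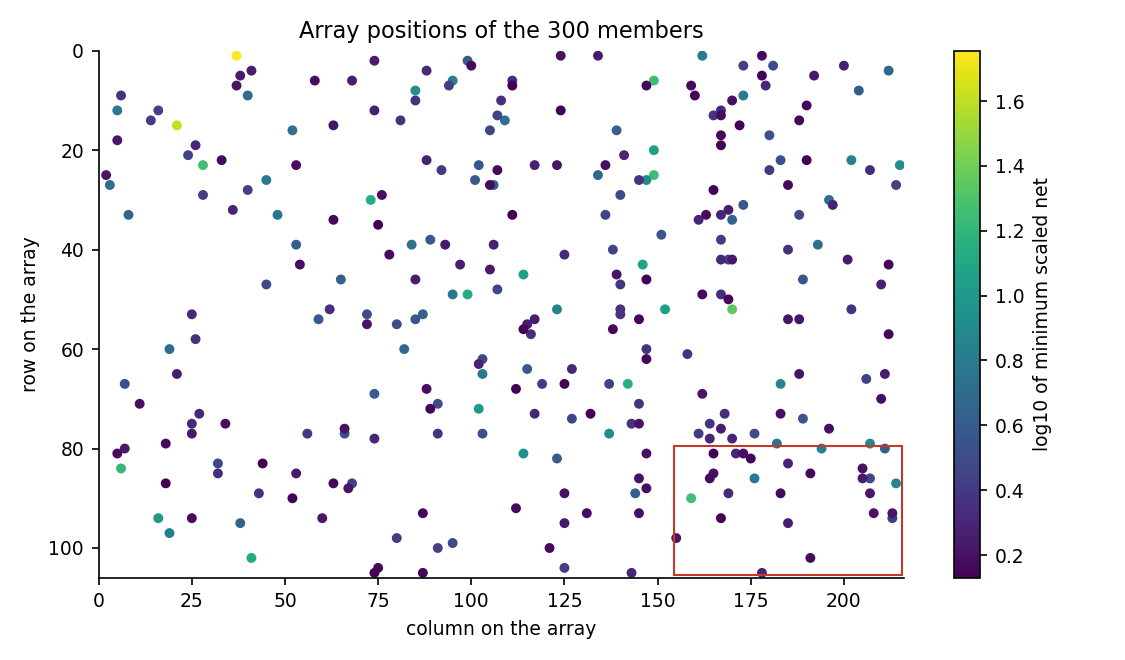
Row and column of the 300 members on the array, coloured by log10 of the minimum scaled net. The box marks the last 26 rows and 61 columns, which held most of the spots with raised local background without wash and where 27 members lie; the members are found in 98 of the 105 rows.

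The corner held 27 members (9%), against 5.80% of the unflagged spots. A background over 1.25 times the sample's median was found at 397 and 488 unflagged spots in the female and male samples without wash, 359 and 405 of them among the 1272 unflagged spots of this corner, and at 16 and 60 with wash. Local background at the members was nonetheless mostly close to that of the array. Its median was 41.5 and 23.2 intensity units in the female and male samples without wash and 24.4 and 40.4 with wash, against 41.1, 23.1, 24.3 and 39.9 over all unflagged spots. It was raised at 4 and 5 members in the female and male samples without wash, 4 of them in the corner in each sample, and at 0 and 3 with wash. No member was among the 425 unflagged spots that were at least 8-fold brighter in Cy3 than in Cy5, as the ratio limits require.

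How far the membership rests on the rule was measured by changing 1 step at a time. The background median in place of the mean kept 292 of the 300 members, flagged spots kept in gave 295, and ranking by the mean of the 4 samples kept 273. Scaling by the 75th percentile kept 87 and leaving out background subtraction 75. Narrower limits of 0.9 to its inverse, which 504 spots met, kept 32, and wider limits, which 6166 spots met, kept 43. Leaving out 1 sample, so that the ratio was asked on the complete slide only, kept 37 without the first and 20 without the second female sample, and 34 and 29 for the male samples.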

How the data were processed

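The authors' deposited scanner files give mean, median and mode pixel intensity of each spot and its local background in 1 dye channel, per the file headers, before any background subtraction. Set against these files, the deposited value table proved to be the natural log of the net signal. The labels name no image software and no array maker. Spots flagged on either slide (474 without wash, 181 with wash) were left out. Scaled net was computed in Python. Log2 values per channel came from normexp (offset 50), loess and Aquantile in limma 3.58.1 under R 4.3.3, and were fitted with sex and slide (lmFit, eBayes with an intensity trend, two-sided, Benjamini-Hochberg over 21928 spots), which left 1 residual degree of freedom, or 2.86 with the prior. The fit and the rule were run on simulated data with large planted signals and no dye effect that changes with brightness. This checks the code and not the results. The offset draws the ratios of dim spots towards 1.

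Samples were grouped by the sex in the labels, with 2 pools each. The design calls replicates independent. The number of arrays, 2 slides, limits the precision and leaves spread between slides of the same wash state unmeasured. Spots named are the 10 brightest members, 2 on each side of the end of the list, the 2 with the least and the 2 with the largest spread, and the 2 with the largest slide difference in each direction that both sexes share; others are marked as named later. The planned gene lists and marker genes could not be looked up, since no table used here names the spots. Members, lists and tests were chosen with earlier results of these data known. Alternatives covered background, normalization, pixel summary, filters, limits, ranking, the value table and each sample left out.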

Additional observations from a re-analysis of the deposited data

Results flagged for a closer look

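At 212 of the 300 members the female sample was the higher on the slide without wash and the male sample the higher on the slide with wash. It was noted because the sex difference runs in opposite directions on the 2 slides. The difference was not tested, each slide holds 1 sample of each sex, and the rule holds each ratio between 0.8 and 1.25. The same count was not made over all unflagged spots. The members' median net signal before scaling also ran in opposite directions. It was 171 and 150 in the female and male samples without wash, and 131 and 214 with wash. After loess, which normalizes the ratio along brightness, 267 of the 300 were higher in the female sample on both slides, against 40.1% of all unflagged spots. The cause of this change was not tested.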

How the results depend on the processing

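Members past the adjusted threshold for the slide term numbered 0, but 5 with median scaling only (where 12.3% of all spots passed), 21 with only spots at least 2 times background tested (16%) and 18 with the spots far brighter in Cy3 left out (21%), and 0 in the other 7 alternatives with a test, of which the value table called 12.5% of all spots. The 4 spots named for this difference (15507, 5696, 17815 and 20395) passed it with the background filter and without the Cy3-bright spots, and 15507 and 20395 also with median scaling. Their adjusted p ranged over these 10 alternatives from 0.00039 (spot 15507, median scaling only) up to 0.999992 without normalization. The corner spots were untested where the corner was left out. The degrees of freedom with the prior were 21928 in both these settings and 21925 in the value table, against 2.86 in the main fit. Their p-values are thus not directly comparable with the others. With 1 sample left out no residual remained, so no test was run. The members' median slide difference of -0.14 was 0.046 without normalization and 0.076 in the value table, whose channels are not scaled, between -0.23 and -0.0039 in the other 8 with all samples, and -0.22 to -0.036 with each sample left out. Of the 300 members, the rule kept 35 with median pixels, 75 with no background subtracted, 32 and 43 with narrower and wider limits, 87 with the 75th percentile, 4 with loess values, 0 with plain subtraction and loess, and 20 to 37 with each sample left out. Spots chosen without wash were within the limits with wash in 8%, but in 3% of 100 chosen, 14.6% of 1000 chosen and 74% with loess values. Chosen with wash they were so in 11.3%, but in 7%, 22.2% and 75%. A neighbouring member was found for 4.67%, but for 1.33% within a row and 10% among the 8 surrounding spots. The cause of these changes was not tested. The ratio of median to mean pixel, 1.08 on average over samples, was 1.10 with background subtracted. With 2 slides, the precision is limited by their number, and dim spots by their signal over background. The p-values of the slide term hold no spread between slides of the same wash state in any setting.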
